A study of Mus musculus with 8 samples.

Results

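The genes described here build and serve the primary cilium. They were the rows of the gene table whose symbols begin with Ift, Bbs, Tctn or Nphp followed by a number, together with Wdr19 and Wdr35 and 10 genes picked by name. The rule matched 40 of 22274 rows. No measured value entered it, though the genes were chosen with earlier results of these data known. The rule also lists Wdr34 and Wdr60, which matched no row by symbol; the same gene IDs appear in the table as Dync2i2 and Dync2i1 and are given separately. The libraries came from RFB, a mouse kidney cell line whose labelled cell type is fibroblast. In 4 libraries the cells had received TGF-β together with chaetocin, a compound from fungi that inhibits histone H3 lysine 9 methyltransferases, Suv39h1 among them. In the 4 libraries they were set against, the cells had received TGF-β alone, so both groups carry the TGF-β treatment and neither shows untreated cells. The sources used here do not give doses, times, whether RFB is 1 clone or whether replicates were separate cultures, and the p-values reflect only how much these libraries varied, which may be technical. The series' design text names knockdown derivatives of RFB, while the labels of these 8 libraries name no knockdown.

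The primary cilium is a single antenna that grows from the mother centriole of most resting mammalian cells, tubule epithelium and fibroblasts included. Its axoneme is built at the tip from cargo that intraflagellar transport (IFT) carries. The IFT-B complex moves outward with kinesin-2, the IFT-A complex and the dynein-2 motor bring material back, the BBSome exports membrane receptors, and the transition zone at the base controls what enters. In the kidney, mutations in these genes are known for cystic disease, nephronophthisis and the Bardet-Biedl and Joubert syndromes.

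Total counts were 14421225 to 22591935 in chaetocin libraries and 20135312 to 23664084 in libraries with TGF-β alone. Correlations of log2 CPM were at least 0.993 within a group and at most 0.917 between groups, and edgeR's common biological coefficient of variation was 2.94%. With so little spread, most of the transcriptome passed the test: of 14608 genes tested, 80.7% were called at an edgeR adjusted p under 0.05, 42% higher and 38.8% lower with chaetocin. Levels are given as CPM, the read count normalised to the TMM-scaled library size, for one gene across libraries, and as the authors' FPKM, which divides by gene length, for one gene against another. Abundant transcripts in these cells included keratins of simple epithelium, with Krt8 at 1919 FPKM in chaetocin libraries and 776 FPKM with TGF-β alone. The epithelial adhesion genes Epcam (179.6 and 157 FPKM) and Cdh1 (145 and 141 FPKM) were also abundant. The tubule segment markers Aqp2 (1 and 0 counts over the group), Slc34a1 (2 and 1) and Slc12a3 (4 and 2) were nearly absent. They were picked after their values were seen and were too low to be tested. Of the 20 listed tubule markers 16 were tested, other segment markers among them. Among fibroblast markers, the matrix genes Fn1 (2157 and 4374 FPKM) and Col1a1 (10.2 and 37.8 FPKM) were well detected, while Pdgfra (0.670 and 0.527 FPKM) and Dcn (1.34 and 0.0700 FPKM) were low. Some genes of both marker lists were thus well detected, which does not settle the cell type, and fibroblast is used here only as the label gives it.

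All 40 cilium genes passed the filter on low counts, with 56 to 4972 counts in a library. With chaetocin 28 fell, 5 rose and 7 had no call, so 82.5% were called against 80.7% of all tested genes, a share near the background. The direction was less evenly split: 70% of the cilium genes fell, against 38.8% of tested genes, and 12.5% rose, against 42%. Among the 9861 tested genes within the cilium genes' range of mean expression, 46.9% fell and 33.5% rose. The median log2 fold change, chaetocin over TGF-β alone, was -0.45 for the cilium genes, 0.02 for all tested genes and -0.09 for genes in that expression range. In 27 of the 40 genes, all called lower, the 4 chaetocin libraries lay wholly below the other 4. In 5 of the 40, all called higher, they lay wholly above. Over all 14608 tested genes 5216 (35.7%) lay wholly below and 5700 (39%) wholly above, beside 5662 called lower and 6129 called higher. A lack of overlap was thus nearly as common as a call, both in the 40 genes and over all tested genes. Summed over the 40 genes, chaetocin libraries held 1075 to 1101 CPM and libraries with TGF-β alone 1382 to 1432 CPM. Of these sums Pkd1, Pkd2 and Pkhd1 made up 348 to 361 CPM and 529 to 548 CPM. The sum thus depends heavily on a few abundant genes. In bulk libraries such as these, fewer cells of a type and less RNA per cell cannot be told apart.

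**Figure D1:**
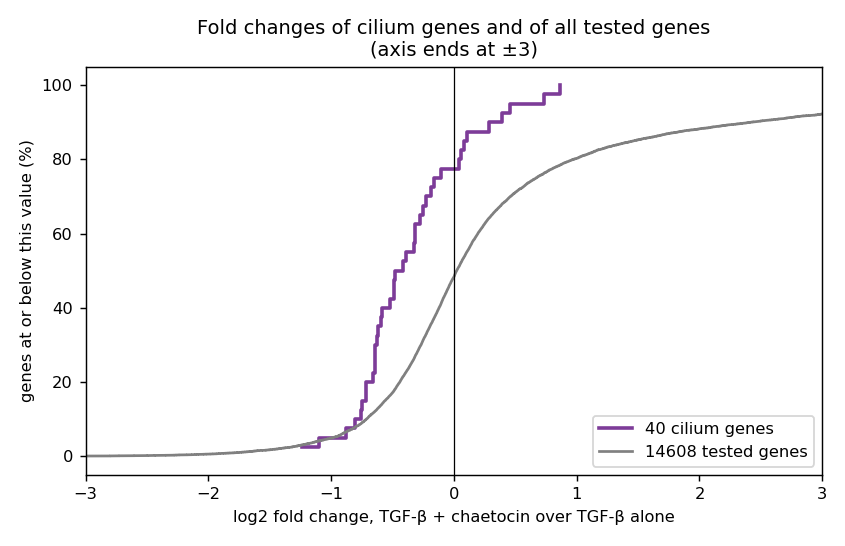
Cumulative share of genes (vertical axis, %) at or below each log2 fold change, chaetocin over TGF-β alone (horizontal axis), for the 40 cilium genes and the 14608 tested genes. The curve of the cilium genes lies left of the other over most of the axis, with medians of -0.45 and 0.02, and ends at 0.87, while that of all genes runs on past the end of the axis.

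The changes were moderate in size. Log2 fold changes ran from -1.23 for Pkd2 to 0.87 for Cep290, and 21 of the 40 genes lay within 0.5 of no change. Pkd2 and Bbs1 were the 2 genes that passed a 2-fold difference, both downwards, where 4.88% of tested genes were called and at least 2-fold lower and 19.7% called and at least 2-fold higher. When the test asked for a change of more than 1.5-fold (glmTreat), 7 cilium genes fell, Pkd2, Bbs1, Arl13b, Tctn3, Pkhd1 and Ift46 among them, and 1 rose (Cep290). Scaling by total counts moved the median of all genes up by 0.11 and the median of the cilium genes to -0.33, with 26 falling and 6 rising.

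**Figure D2:**
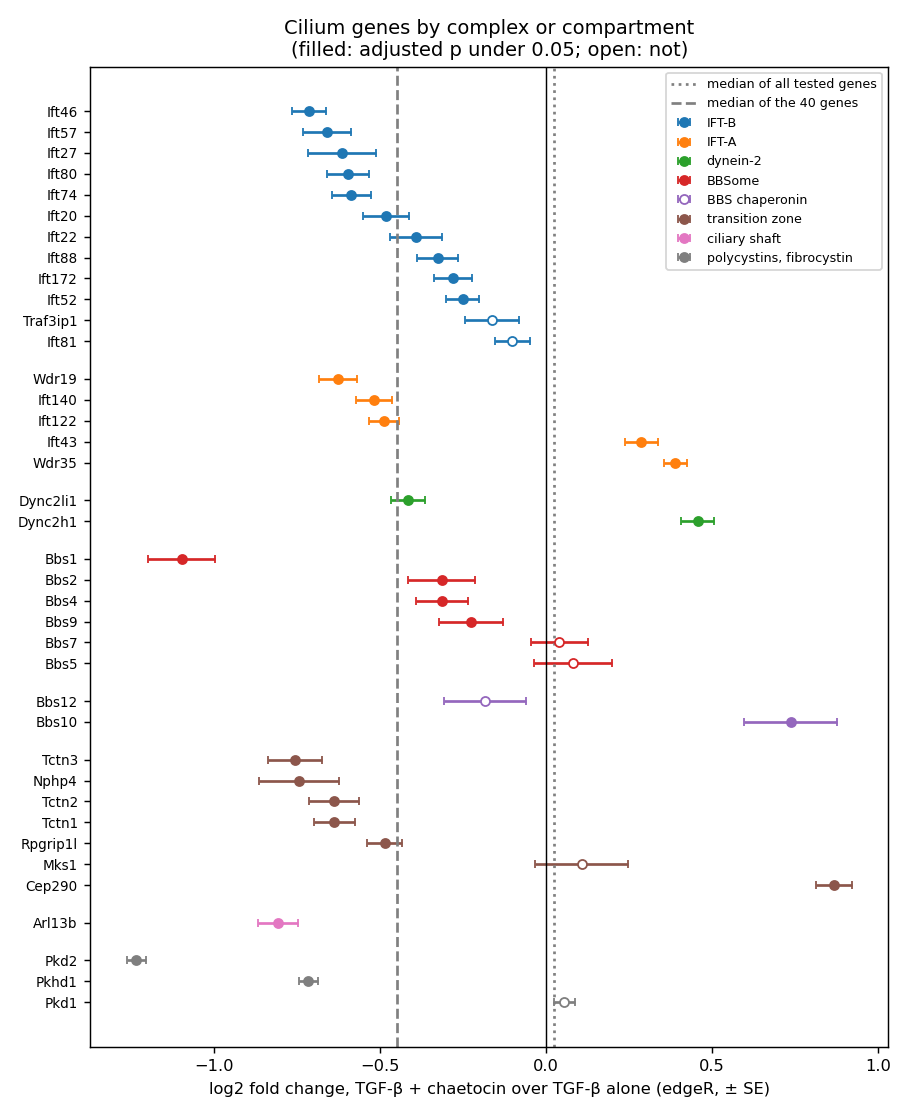
Log2 fold change with its SE for 38 of the 40 genes (chaetocin over TGF-β alone, 4 libraries each, edgeR), grouped by complex or compartment; filled points passed an adjusted p of 0.05. Most points lie left of 0, the 5 genes called higher are Ift43, Wdr35, Dync2h1, Bbs10 and Cep290, and the dashed and dotted lines mark the medians of all 40 genes and of all tested genes, -0.45 and 0.02.

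Promoter sequence was examined for the binding pattern of RFX factors, the best known regulators of cilium genes, whose X-box is an inverted repeat. The pattern searched was GTNNCCNNGGNNAC, which reads the same on both strands and overlaps no other pattern searched. RefSeq windows (GRCm38.p6) of 250 bases before to 50 after the start site were at hand for 34 of the 40 genes. Of these, 10 genes (29.4%) held the pattern, against 305 of 11454 tested genes (2.66%) and 618 of all 32851 windows of the same length (1.88%). The 10 genes comprised 8 that fell and 2 with no call (Bbs7 and Mks1); of the 24 genes without the pattern 15 fell, 5 rose and 4 had no call. The pattern was chosen as a known cilium motif with these sequences in view, and a match is a run of letters, not a bound site. Each match is shown with the bases beside it, the pattern in capitals, read 5′ to 3′ on the strand of the gene.
Ift22, chr5:136908079-136908108, plus strand: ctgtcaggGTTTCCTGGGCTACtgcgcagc
Ift22, chr5:136908109-136908138, plus strand: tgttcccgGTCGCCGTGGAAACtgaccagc
Ift57, chr16:49699199-49699228, plus strand: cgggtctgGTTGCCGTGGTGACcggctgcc
Wdr19, chr5:65199654-65199683, plus strand: tttgcacgGTCTCCTGGGTGACgagaacgc
Bbs1, chr19:4906605-4906634, minus strand: ctgagctgGTTGCCAAGGCGACgcctggga
Bbs4, chr9:59353464-59353493, minus strand: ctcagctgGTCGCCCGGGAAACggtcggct
Bbs7, chr3:36613489-36613518, minus strand: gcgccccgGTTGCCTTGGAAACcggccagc
Tctn1, chr5:122264411-122264432, minus strand: ctgtgactGTTGCCCGGGCAAC
Tctn2, chr5:124598679-124598708, plus strand: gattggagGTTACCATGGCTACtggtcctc
Nphp4, chr4:152477903-152477932, plus strand: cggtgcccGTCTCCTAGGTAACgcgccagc
Mks1, chr11:87853183-87853212, plus strand: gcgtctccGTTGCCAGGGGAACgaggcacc

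Distances from the start site of the window to the centre of the pattern were 17 to 224 bases upstream for 8 matches. They were 8 to 43 bases downstream for those of Bbs1, Bbs4 and Tctn1. The match 224 bases upstream was that of Nphp4, for which 3 windows were searched. It lies inside the annotated gene, which starts at chr4:152476706. Ift22 held 2 matches 30 bases apart. For context, the 250 bases before the start sites of Ift22, an IFT-B gene, and Wdr19, an IFT-A gene, are shown with the same capitals.
Ift22, chr5:136907900-136908149, plus strand: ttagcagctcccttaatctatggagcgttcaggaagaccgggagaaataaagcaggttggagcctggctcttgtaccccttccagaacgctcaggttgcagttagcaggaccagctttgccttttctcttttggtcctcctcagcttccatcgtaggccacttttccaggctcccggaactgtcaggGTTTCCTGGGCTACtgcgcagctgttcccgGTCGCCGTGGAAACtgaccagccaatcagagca
Wdr19, chr5:65199446-65199695, plus strand: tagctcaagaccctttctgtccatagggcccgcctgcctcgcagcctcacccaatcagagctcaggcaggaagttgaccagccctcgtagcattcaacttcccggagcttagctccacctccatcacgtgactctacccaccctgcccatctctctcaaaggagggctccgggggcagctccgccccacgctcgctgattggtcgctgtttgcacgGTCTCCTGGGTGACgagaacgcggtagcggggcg

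Most genes of IFT-B, the outward cargo complex, fell. Of its 12 genes 10 were called lower, none was called higher, and Ift81 and Traf3ip1 had no call. All 12 log2 fold changes were negative, although that of Ift81 became 0.01 under total-count scaling. Summed over the 12 genes, chaetocin libraries held 221 to 240 CPM and libraries with TGF-β alone 299 to 315 CPM.

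Ift46, a subunit of the IFT-B core, had 22.9, 23.8, 21.1 and 22.5 CPM in the 4 chaetocin libraries, against 35.9, 37.3, 38.2 and 37.1 CPM with TGF-β alone. The highest chaetocin library lay well below the lowest of the others (log2 fold change -0.71, SE 0.05, adjusted p = 6.12e-13). Ift57, on the kinesin-facing side of the complex, averaged 14.6 ± 1.76 CPM in chaetocin libraries and 23.3 ± 1.36 CPM with TGF-β alone (SD, n = 4 each; log2 fold change -0.66). Ift27, a Rab-like small GTPase that works with the BBSome in receptor exit, averaged 5.96 ± 0.553 and 9.17 ± 0.423 CPM (log2 fold change -0.61). Ift80 and Ift74 fell by similar amounts, 0.60 and 0.59 on the log2 scale. Ift80 is mutated in a skeletal ciliopathy, and Ift74 forms the tubulin-binding module with Ift81.

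Ift88, whose hypomorphic allele causes cystic kidneys in the mouse, had 22.1, 18.5, 19.6 and 19.5 CPM in chaetocin libraries, against 26.2, 23.8, 24.6 and 25.9 CPM with TGF-β alone. The groups lay close but did not overlap (log2 fold change -0.33, SE 0.06, adjusted p = 2.61e-05). Ift81, the partner of Ift74, had 28.4, 28.0, 25.7 and 29.3 CPM in chaetocin libraries and 29.4, 29.1, 29.7 and 31.4 CPM with TGF-β alone, and these ranges overlapped (log2 fold change -0.10, adjusted p = 0.0771). The remaining genes were Ift20, which also works at the Golgi, the GTPase Ift22, Ift172 and Ift52, with log2 fold changes of -0.48, -0.39, -0.28 and -0.25, all called lower. Traf3ip1, known as IFT54, was at -0.16 with an adjusted p of 0.0684. Ift22 and Ift52 were not called when limma was run on the authors' FPKM values.

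IFT-A did not move as one block. Its core genes Wdr19, Ift140 and Ift122 fell, while Wdr35 and Ift43, which sit at the periphery of the complex, rose. Wdr19 had 24.8, 20.2, 22.3 and 23.9 CPM in chaetocin libraries, against 34.4, 34.7, 36.0 and 36.6 CPM with TGF-β alone (log2 fold change -0.63, SE 0.06, adjusted p = 9.64e-11). Wdr35 had 83.5, 84.9, 79.6 and 83.3 CPM in chaetocin libraries, against 64.4, 62.2, 61.6 and 64.8 CPM with TGF-β alone (log2 fold change 0.39, SE 0.03, adjusted p = 6.41e-11). Neither gene's groups overlapped, and the genes moved in opposite directions.

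Ift43 averaged 41.5 ± 2.21 CPM in chaetocin libraries and 33.9 ± 1.19 CPM with TGF-β alone (log2 fold change 0.29, SE 0.05, adjusted p = 5.49e-06), again without overlap. Ift140 and Ift122 fell by 30.2% and 28.7%. Ttc21b, the third peripheral IFT-A gene, lies outside the rule and was looked up after these values were seen; it had 21.8 CPM in chaetocin libraries and 33.3 CPM with TGF-β alone and fell (log2 fold change -0.60, adjusted p = 7.49e-11). Because the genes moved apart, the summed level of the 5 IFT-A genes overlapped, at 197 to 207 CPM in chaetocin libraries and 205 to 214 CPM with TGF-β alone. The FPKM ratio of Wdr35 to Wdr19, a comparison per length within each library, averaged 4.74 ± 0.687 with chaetocin and 2.38 ± 0.0976 with TGF-β alone (SD, n = 4 each). That of Ift43 to Ift140 averaged 13.0 ± 0.247 with chaetocin and 7.52 ± 0.850 with TGF-β alone.

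The dynein-2 motor, which carries IFT trains back to the base, was also split. Dync2h1, its heavy chain, had 50.2, 43.3, 43.1 and 46.6 CPM in chaetocin libraries, against 33.4, 34.4, 33.3 and 33.1 CPM with TGF-β alone (log2 fold change 0.46, SE 0.05, adjusted p = 3.44e-09). Dync2li1, its light intermediate chain, had 29.6, 29.8, 31.8 and 27.8 CPM in chaetocin libraries, against 42.1, 39.7, 38.1 and 38.7 CPM with TGF-β alone (log2 fold change -0.42, SE 0.05, adjusted p = 2.68e-08). The heavy chain was higher in each chaetocin library than in any other, and the light intermediate chain lower. Per length, the ratio of heavy to light intermediate chain averaged 0.162 ± 0.0232 with chaetocin and 0.0858 ± 0.00378 with TGF-β alone, so the heavy chain's transcript was the scarcer in both groups. Of the intermediate chains that the rule lists under older symbols, Dync2i2 (Wdr34) averaged 7.70 ± 1.04 and 14.1 ± 1.11 CPM and fell (log2 fold change -0.87). Dync2i1 (Wdr60) averaged 22.8 ± 2.11 and 22.4 ± 0.527 CPM with no call (log2 fold change 0.02, adjusted p = 0.720).

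**Figure D3:**
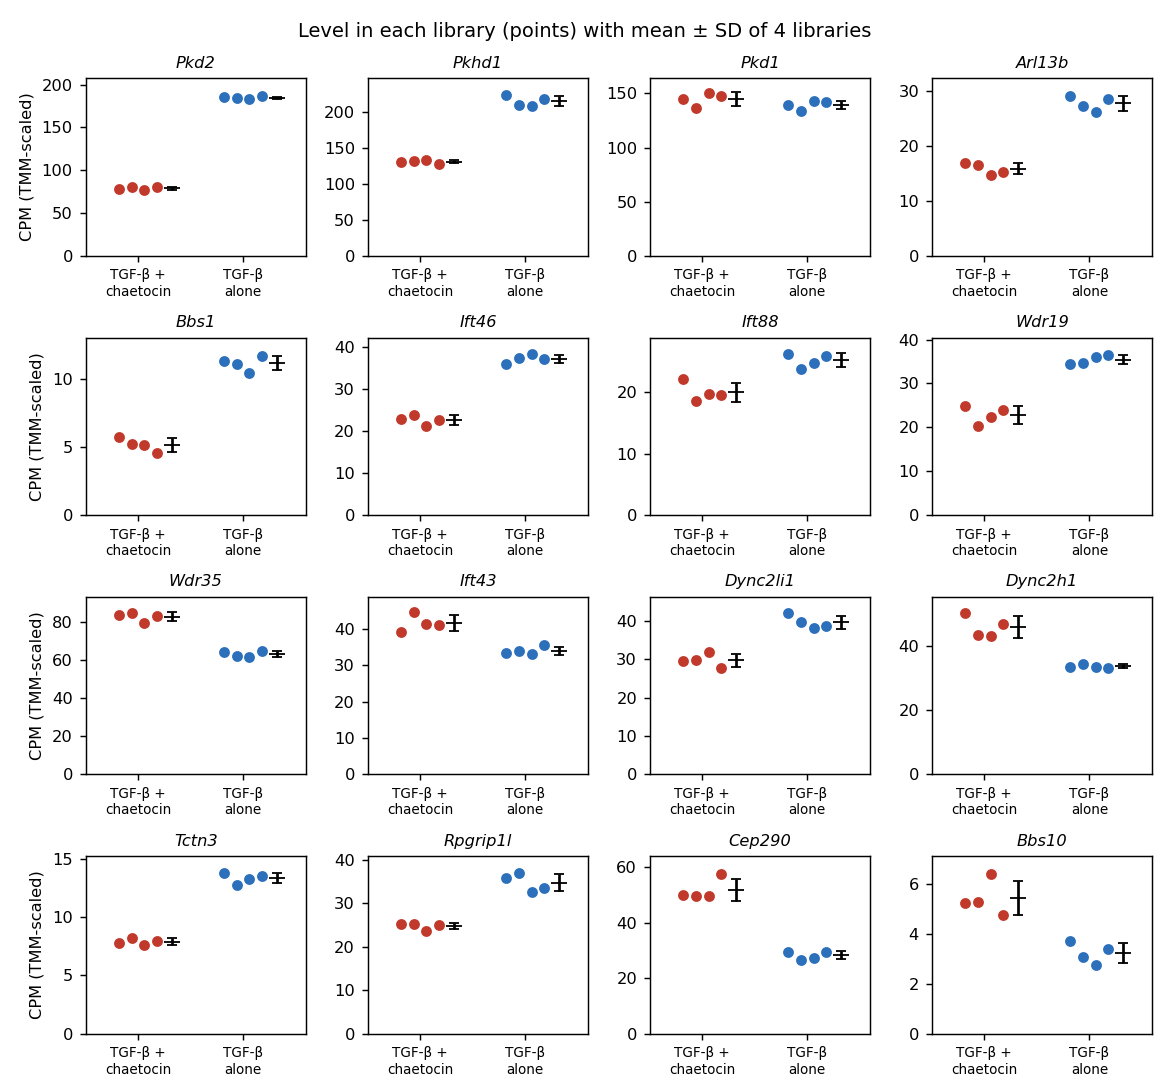
Level in CPM (vertical axes, each starting at 0) of 16 of the cilium genes in the 4 chaetocin and 4 TGF-β-alone libraries (points), with the mean and SD of each group. Pkd2, Pkhd1, Arl13b, Bbs1, Ift46, Ift88, Wdr19, Dync2li1, Tctn3 and Rpgrip1l lie lower with chaetocin, Wdr35, Ift43, Dync2h1, Cep290 and Bbs10 lie higher, and the groups of Pkd1 overlap.

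Bbs1, the BBSome subunit that the small GTPase Arl6 recruits to membranes, had 5.77, 5.24, 5.14 and 4.53 CPM in chaetocin libraries, against 11.3, 11.1, 10.5 and 11.7 CPM with TGF-β alone. The groups lay far apart, and Bbs1 fell by 53.3% (log2 fold change -1.10, SE 0.10, adjusted p = 1.11e-10). Bbs2 and Bbs4 fell by less, with log2 fold changes of -0.31 and -0.31. Bbs9 was called lower at an adjusted p of 0.0328, but its libraries overlapped, at 7.95, 8.82, 7.67 and 8.16 CPM with chaetocin and 10.1, 8.97, 10.4 and 8.62 CPM with TGF-β alone. DESeq2, total-count scaling, limma on FPKM and leaving out replicate 1 or 3 of either group each ended the call of Bbs9, and Bbs2 lost its call under total-count scaling and on FPKM. Bbs7 and Bbs5 had no call (0.04 and 0.08, adjusted p = 0.684 and 0.531).

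Of the chaperonin-like proteins that assemble the BBSome, Bbs10 rose and Bbs12 had no call. Bbs10 had 5.25, 5.30, 6.40 and 4.78 CPM in chaetocin libraries, against 3.72, 3.09, 2.77 and 3.39 CPM with TGF-β alone. Every chaetocin library was above the others, at 75 to 123 counts against 56 to 81 counts, so counting error is larger here than for most of the genes (log2 fold change 0.74, SE 0.14, adjusted p = 2.99e-05). Bbs12 averaged 5.29 ± 0.696 and 6.07 ± 0.546 CPM (log2 fold change -0.18, adjusted p = 0.171).

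Of 8 transition zone genes 6 fell, 1 rose and 1 had no call. Tctn1, Tctn2 and Tctn3, the tectonics of the membrane-linked module, fell by 35.8%, 35.8% and 40.8%. Tctn3 had 7.82, 8.24, 7.60 and 7.97 CPM in chaetocin libraries, against 13.8, 12.8, 13.3 and 13.5 CPM with TGF-β alone (log2 fold change -0.76, SE 0.08, adjusted p = 2.86e-09). Nphp4, a scaffold protein of the nephronophthisis module, averaged 4.49 ± 0.530 CPM with chaetocin and 7.56 ± 0.733 CPM with TGF-β alone. It fell without overlap (log2 fold change -0.74). Mks1, a B9-domain protein of the Meckel syndrome module, had no call (log2 fold change 0.11, adjusted p = 0.487).

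Cep290, which links the axoneme to the ciliary membrane and is mutated in Joubert syndrome, moved the other way. It had 49.98, 49.7, 49.6 and 57.6 CPM in chaetocin libraries, against 29.6, 26.6, 27.3 and 29.5 CPM with TGF-β alone. The 4 chaetocin libraries lay far above the others (log2 fold change 0.87, SE 0.05, adjusted p = 1.98e-14). Of its annotated exon bases 7.58% are shared with a gene on the opposite strand, 4930430F08Rik, which had no call (log2 fold change 0.17, adjusted p = 0.0900), and the sources used here do not give the strand setting of the counting. Rpgrip1l, a transition zone scaffold, had 25.2, 25.2, 23.7 and 24.998 CPM with chaetocin and 35.8, 37.1, 32.6 and 33.6 CPM with TGF-β alone and fell (log2 fold change -0.49). Its deposited FPKM hardly differed in the mean, at 4.9 with chaetocin and 5.055 with TGF-β alone. By library it was 3.93, 7.55, 4.03 and 4.09 with chaetocin and 4.98, 5.41, 5.09 and 4.74 with TGF-β alone. Chaetocin replicate 2 stood apart, while the other chaetocin libraries lay below every library with TGF-β alone. Limma on FPKM did not call Rpgrip1l. Tctn1 shares 25.5% of its exon bases with other genes, mostly with Hvcn1 on the opposite strand, which rose (log2 fold change 0.75), against the direction of Tctn1.

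Within the cilium itself, Arl13b fell. Arl13b, a small GTPase of the ciliary membrane that is mutated in Joubert syndrome and widely used as its marker, had 16.8, 16.5, 14.7 and 15.2 CPM in chaetocin libraries. Libraries with TGF-β alone had 29.2, 27.2, 26.2 and 28.6 CPM, and the groups lay far apart (log2 fold change -0.81, SE 0.06, adjusted p = 2.31e-12).

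The 3 genes of polycystic kidney disease diverged, with Pkd2 and Pkhd1 falling and Pkd1 not called. Pkd2, the polycystin-2 channel, had 77.6, 79.9, 76.3 and 80.7 CPM in chaetocin libraries, against 185, 184, 184 and 186 CPM with TGF-β alone. The libraries of each group lay close together and the groups far apart, and Pkd2 fell by 57.5% (log2 fold change -1.23, SE 0.03, adjusted p = 4.82e-24). Pkd1, the receptor-like polycystin-1 that pairs with it, had 145, 136, 150.3 and 148 CPM with chaetocin and 139, 134, 143 and 142 CPM with TGF-β alone, and these ranges overlapped (log2 fold change 0.05, SE 0.03, adjusted p = 0.108). Pkd1 was called higher under 4 alternatives, DESeq2's size factors and total-count scaling among them, with log2 fold changes of at most 0.17 over all alternatives.

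Pkhd1, which encodes fibrocystin and is mutated in recessive polycystic kidney disease, had 131, 132, 134 and 128 CPM in chaetocin libraries, against 224, 211, 209 and 219 CPM with TGF-β alone. It fell by 39.2% without overlap (log2 fold change -0.72, SE 0.03, adjusted p = 1.08e-18). Fibrocystin is known from tubule and duct epithelium, and its gene was at 10.5 and 16.0 FPKM. Pkd1 shares 693 exon bases with Tsc2 on the opposite strand, and Tsc2 fell (log2 fold change -0.35).

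Per length, Ift43 was the most abundant of the 40 transcripts in both groups, at 55.2 ± 3.12 FPKM with chaetocin and 41.6 ± 1.45 FPKM with TGF-β alone (SD, n = 4 each). Behind it the order differed. With chaetocin came Dync2li1 (22.8 ± 1.26 FPKM), Wdr35 (20.4 ± 0.534 FPKM) and Ift20 (18.03 ± 1.16 FPKM), and with TGF-β alone Pkd2 (34.04 ± 0.186 FPKM), Ift46 (30.0 ± 6.36 FPKM) and Dync2li1 (28.1 ± 1.17 FPKM). With TGF-β alone, neither Pkd2 nor Dync2li1 differed from Ift46 beyond the spread of Ift46. Ift46 was at 39.5 FPKM in replicate 4 and at 25.8 to 27.6 FPKM in the others. Its CPM in replicate 4 was nonetheless within the range of its group. Pkd2 lay above Dync2li1 without overlap, at 33.9 to 34.3 FPKM against 27.1 to 29.7 FPKM. With chaetocin, the libraries of Wdr35 and Ift20 overlapped, and Pkd2 averaged 15.7 ± 0.424 FPKM. In TGF-β-alone libraries 26 of the 40 genes averaged under 10 FPKM, and Bbs10 was the lowest at 1.14 ± 0.141 FPKM; with chaetocin the lowest was Nphp4 at 0.990 ± 0.138 FPKM.

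**Figure D4:**
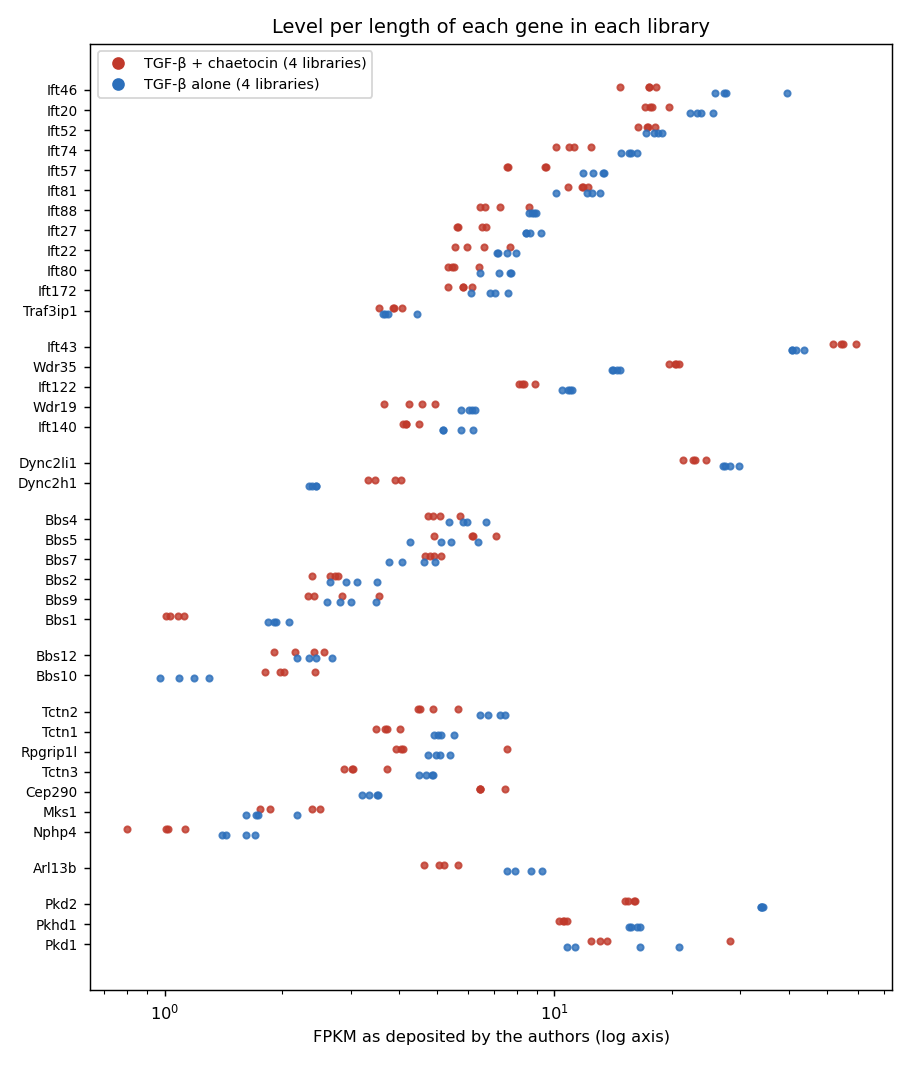
Deposited FPKM (log axis) of 38 of the 40 genes in each library, grouped by complex and ordered within it by level. Ift43 lies highest at 55.2 FPKM with chaetocin and 41.6 FPKM with TGF-β alone, and Pkd1 and Rpgrip1l show a wide spread within a group.

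The authors' deposited table gave a log2 ratio of mean FPKM with the same sign as the edgeR fold change for all 40 genes. The authors' deposited ratio minus the edgeR value had a median of 0.12, and was 0.44 for Rpgrip1l. For several genes the FPKM did not follow the counts: scaled by CPM, FPKM varied 2.18-fold over libraries for Pkd1, 1.97-fold for Rpgrip1l, 1.65-fold for Ift46 and 1.52-fold for Ift80, against 1.001-fold for Pkd2.

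Other parts of the ciliary machinery were taken from lists chosen with earlier results of these data known, and are described by counts. Of 21 other IFT, motor and BBSome genes 5 rose, 8 fell and 8 had no call (median log2 fold change 0.03). Thus 61.9% of this list were called, against 80.7% of all tested genes, of which 42% rose and 38.8% fell. The median of the list lay near that of all tested genes (0.02). The lower median of the cilium genes chosen by the rule (-0.45) therefore did not extend to this list. All 3 subunits of heterotrimeric kinesin-2, the outward IFT motor, fell. Kif3a averaged 33.7 ± 0.839 CPM with chaetocin and 49.4 ± 2.21 CPM with TGF-β alone, Kif3b 65.2 ± 1.81 and 99.9 ± 2.76 CPM, and Kifap3 32.9 ± 1.95 and 58.6 ± 2.57 CPM (log2 fold changes -0.55, -0.61 and -0.84). The BBSome subunit Bbip1 rose (log2 fold change 0.46), as did Ttc30a2, an IFT-B gene with near-identical relatives (1.11 and 0.156 CPM).

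Among 18 other genes of the transition zone and inversin compartment 5 rose and 9 fell (median -0.21). Nek8, a kinase of the inversin compartment, had 28.2, 28.6, 28.1 and 31.3 CPM with chaetocin, against 9.37, 9.43, 9.33 and 8.80 CPM with TGF-β alone (log2 fold change 1.65, SE 0.07, adjusted p = 9.18e-19). Invs, the scaffold of that compartment, fell (log2 fold change -0.56). Ahi1, mutated in Joubert syndrome, rose (0.92) and Cc2d2a fell (-0.94). Basal body and cilium assembly genes were the list nearest to the 40 in its counts, with 3 of 24 rising and 18 falling (median -0.30). Pcm1, the scaffold of centriolar satellites, and Odf2, of the mother centriole's appendages, fell (-0.76 and -0.73), while Cep83 and Ehd1 rose (0.38 and 0.22).

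Of 15 genes known to suppress cilia or take them apart 7 rose and 4 fell (median 0.04). Aurka, the kinase that starts cilium disassembly, averaged 17.999 ± 1.27 CPM with chaetocin and 7.53 ± 0.883 CPM with TGF-β alone (log2 fold change 1.25, SE 0.09, adjusted p = 3.25e-13). Kif2a, a depolymerising kinesin, rose (0.56). Nedd9, which activates Aurora A, and the tubulin deacetylase Hdac6 fell (-1.21 and -0.71), so members of this list moved both ways.

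Hedgehog signalling runs through the cilium in vertebrates. Of its 21 listed genes 16 were tested, of which 5 rose and 7 fell; the median was -0.08 and became 0.04 under total-count scaling. The transducer Smo and the co-receptor Cdon fell (-0.58 and -0.80), and the ligand Dhh and the adaptor Spop rose (3.10 and 0.35). Of the target genes, Ptch1 had no call (-0.05, adjusted p = 0.426), Gli1 was below the filter with 24 counts over the chaetocin libraries and 8 over the others, and Hhip rose from few reads, with 140 counts over the chaetocin libraries and 4 over the others. Of 14 ciliary membrane receptors and cyclases 8 were tested, with 3 rising and 3 falling (median 0.25). The polycystin relatives Pkd1l1 and Pkd2l1 rose, Pkd1l1 at 10.2 ± 1.05 CPM with chaetocin and 2.81 ± 0.560 CPM with TGF-β alone. Pkd2l1 had 244 counts over the chaetocin libraries and 1 over the others, a ratio of 294 with an exact 95% interval of 52.4 to 11677 for counting error only. The planar polarity gene Vangl2 and the cyclase Adcy6 fell (-1.40 and -0.38).

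A list of 13 transcription factors was drawn up for cilium genes, though not all of them are known to drive such genes. Of these 11 were tested, of which 8 fell and 2 rose (median -0.40). Rfx3, a factor that binds the X-box, averaged 13.0 ± 1.29 CPM with chaetocin and 15.9 ± 1.88 CPM with TGF-β alone; it was called lower, but the libraries overlapped (log2 fold change -0.29, SE 0.09, adjusted p = 0.00301). Foxj1, the motile cilium factor, had 22.0, 22.0, 20.6 and 20.5 CPM with chaetocin, against 51.8, 50.3, 50.9 and 47.6 CPM with TGF-β alone (log2 fold change -1.23, SE 0.05, adjusted p = 1.43e-18). Glis2, mutated in a form of nephronophthisis, fell (-0.91). Rfx4 had 345 counts over the chaetocin libraries and 0 over the others, at least 139-fold higher when the 0 is set to a floor of 3 counts over the group, and Myb rose to 2.42 ± 0.535 CPM with chaetocin, against 0.0593 ± 0.0463 CPM with TGF-β alone.

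**Figure D5:**
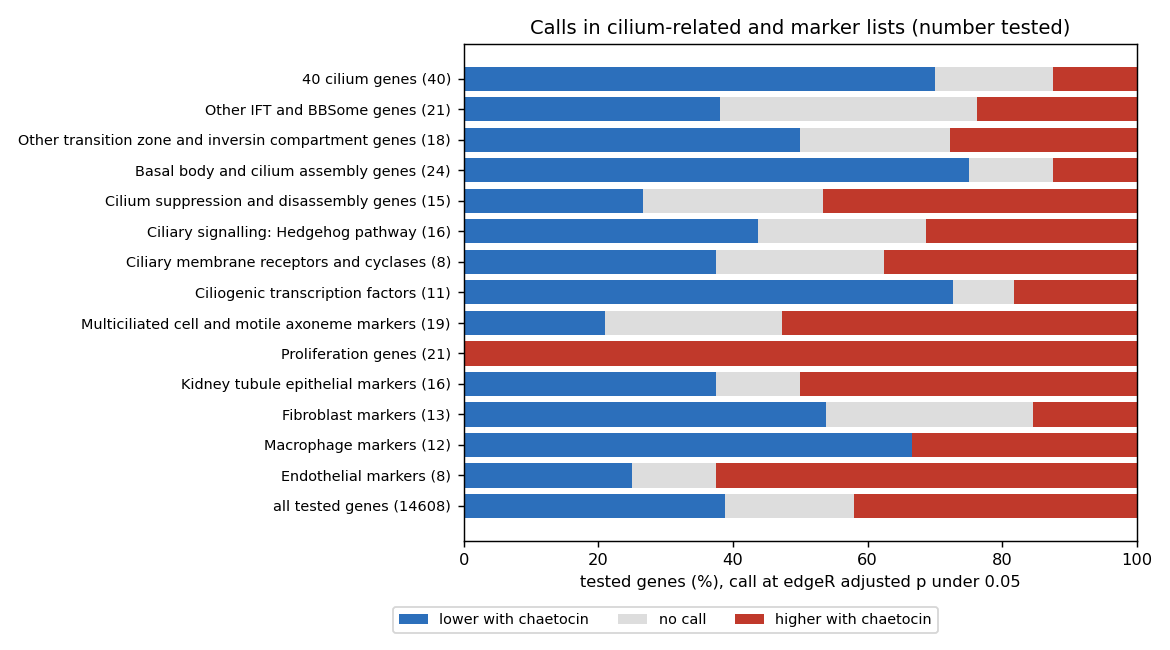
Share of tested genes (horizontal axis, %) called lower, not called or called higher with chaetocin, for the 40 cilium genes, each related or marker list (number tested in brackets) and all 14608 tested genes. The 40 genes (70% lower) and the basal body list (18 of 24 lower) lean to lower. So do the transcription factor list (8 of 11 lower) and the macrophage markers (8 of 12 lower). All 21 proliferation genes were called higher.

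Markers of cell state and of other cell types moved as well. All 21 proliferation genes rose (median 0.85), led by Cdt1 and Ccne2 (2.54 and 2.68), and their summed level was 854 to 878 CPM in chaetocin libraries and 437 to 457 CPM with TGF-β alone. The primary cilium is known to be taken down as cells enter the cycle, and the part of proliferation in these results was not tested. Of 25 markers of multiciliated cells and motile axonemes 19 were tested, with 10 rising and 4 falling (median 0.72, summed 96.6 to 100.8 CPM with chaetocin and 65.8 to 73.2 CPM with TGF-β alone). Dnah12 and Dnah11, dynein heavy chains of the motile axoneme, rose to 23.6 ± 1.34 and 20.3 ± 0.824 CPM with chaetocin, against 0.128 ± 0.116 and 0.122 ± 0.106 CPM with TGF-β alone. Foxj1 and Ccdc39 of the same list fell (-1.23 and -1.33), and Mcidas, a master regulator of multiciliated cells, had 4 counts over the chaetocin libraries and 0 over the others.

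Of 20 tubule epithelial markers 16 were tested, with 8 rising and 6 falling (median 0.05, summed 7732 to 8048 CPM with chaetocin and 4991 to 5172 CPM with TGF-β alone). Krt8 and Krt18 rose (1.19 and 1.13) and Cldn4 fell (-0.51). Krt8 averaged 3615 and 1582 CPM and Krt18 1783 and 812 CPM, so these keratins weigh heavily in the tubule sum. Of 14 fibroblast markers 13 were tested, with 2 rising and 7 falling (median -0.30, summed 16445 to 17727 CPM with chaetocin and 36797 to 38636 CPM with TGF-β alone). Fn1 and Col1a1 fell (-1.14 and -2.01), and Dcn and Fap rose from low levels (4.06 and 0.93). Lum had 19 counts over the chaetocin libraries and 1 over the others. Fn1 alone averaged 16316 CPM with chaetocin and 35963 CPM with TGF-β alone, so the fibroblast sum is mostly that of Fn1. All 12 macrophage markers were called, 4 higher and 8 lower (median -0.83, summed 232 to 274 CPM with chaetocin and 382 to 420 CPM with TGF-β alone), with Cd68 and Cd14 higher (0.94 and 0.87) and Cx3cr1 and C1qc lower (-2.09 and -1.77). Of 8 endothelial markers 5 rose and 2 fell (median 0.68, summed 114 to 125 CPM with chaetocin and 64.9 to 71.3 CPM with TGF-β alone), with Kdr and Vwf higher (2.50 and 4.60) and Emcn and Tie1 lower (-0.62 and -0.72). No marker in these lists was at 0 in all 8 libraries, and the part of these cell types in the results on cilium genes was not tested.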

How the data were processed

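RNA-seq of 8 RFB libraries was read from 1 deposited gene table; the genome build is GRCm38 (mm10) per the submitters' processing notes, while the sources used here name no aligner, counter, annotation release or strand setting. Per the file headers the table holds the authors' raw counts, FPKM in each library, the mean FPKM of each group, a log2 ratio of these means, and a p-value with its FDR from an unnamed test. Grouping follows the treatment label, and 0 columns belonged to other samples. Total counts per library, given with the results, set the precision; intervals and floors (3 counts) cover counting error only.

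Counts of all genes were fitted together in edgeR 4.0.16 (R 4.3.3) with filterByExpr, TMM scaling and the quasi-likelihood F test without a block, and p-values were adjusted over the 14608 tested genes (Benjamini-Hochberg, call under 0.05). The SE is the log2 fold change divided by the square root of F. CPM use the TMM-scaled library size. The fit was tested on simulated data.

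Genes were matched by symbol to the rule. Exon overlaps come from GENCODE M21, in which 39 of the 40 genes were found by ID and Tctn2 by symbol. Promoters come from RefSeq. For 33 of 36 windows, bases just after the start site were found in a transcript of their gene on the stated strand. This checks the strand, not the exact position of the start site. Of the listed symbols, 3 (Rabl5, Csrp2bp and Talpid3) matched no row. The 40 genes are named, and of each of 13 lists the 2 called genes with the smallest p in each direction are named, and Gli1, Ptch1, Hhip, Kif3a, Kif3b, Kifap3, Rfx3, Aurka and Foxj1 in every case, apart from a few genes whose results are not reported here. Epcam, Cdh1, Aqp2, Slc34a1, Slc12a3, Pdgfra, Lum, Mcidas and Ttc21b were named after their values were seen. The 40 genes and the lists were chosen with earlier results of these data known. Alternatives were DESeq2 1.42.0, limma 3.58.1 on voom weights or on log2(FPKM + 1), other scalings, filters, a fold minimum of 1.5, a replicate block and each library left out in turn.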

Additional observations from a re-analysis of the deposited data

Results flagged for a closer look

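In a group of 4 libraries, 1 library was taken as far from the others when its gap to the nearest one, relative to the group's whole range, exceeded Dixon's critical value. Of 190 groups examined 18 met this, 4 of them among the 80 groups of cilium genes; chance alone gives about 1 in 20. Among cilium genes, Cep290 had 57.6 CPM in chaetocin replicate 4, against 49.6 to 49.98 CPM in the other chaetocin libraries. Rpgrip1l had 23.7 CPM in chaetocin replicate 3, the lowest, against 24.998 to 25.2 CPM. In TGF-β-alone replicate 1, Ift52 was lowest at 36.1 CPM, against 39.1 to 39.3 CPM in the other libraries of its group, and Traf3ip1 highest at 15.4 CPM, against 12.6 to 12.9 CPM.

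Among genes of the lists, in chaetocin libraries Pkd1l1 was low in replicate 2 (8.63 CPM), Cdon high in replicate 3 (33.1 CPM) and Nek8 high in replicate 4 (31.3 CPM). With TGF-β alone, replicate 1 was low for Pkd1l1 (1.98 CPM), Col1a1 (217.3 CPM) and C1qc (51.2 CPM), and replicate 2 was high for Cd14 (14.02 CPM). Replicate 3 with TGF-β alone was high for Adcy6 (103.4 CPM), Aurka (8.84 CPM) and Cdt1 (7.66 CPM) and low for Kifap3 (54.7 CPM). Replicate 4 with TGF-β alone was low for Nek8 (8.80 CPM) and was the 1 library of its group with a read of Pkd2l1 (0.0440 CPM). The total count of chaetocin replicate 1, 22591935, stood above those of the other chaetocin libraries.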

How the results depend on the processing

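Over 19 alternatives 5 to 6 cilium genes rose and 22 to 30 fell, apart from the test against a fold of 1.5, in which 1 rose and 7 fell, with 3357 genes higher and 1492 lower over all genes and 90 of the list genes called, against 162 in the reported fit; that test asks for a larger change by construction. Leaving out 1 library gave 5 to 6 rising and 27 to 29 falling, 6030 to 6276 and 5538 to 5677 over all genes, and 157 to 164 list genes called. Outside the fold minimum, 29 of the 40 genes kept both direction and call under each alternative. Of 760 values of single cilium genes 696 kept direction and call, 50 lost the call (25 of them under the fold minimum), 10 gained it and 4 changed sign, none of these with a call: Ift81 was 0.012 under total-count scaling, Bbs7 was -0.0020 and -0.031 without TGF-β-alone replicate 2 or 3 (-0.031 to 0.104 over all libraries left out), and Bbs5 -0.013 without TGF-β-alone replicate 4 (-0.013 to 0.168). The cause of these changes was not tested. Limma on log2(FPKM + 1) without a filter called 8623 genes higher and 4068 lower. Of 798 counts by role or list 60 moved by more than 1.5 times, 23 of them under the fold minimum. With the replicate number as a block 28 cilium genes fell and 5 rose, and no call of a cilium gene changed. Over all genes 6105 were then higher and 5643 lower. Same-numbered libraries did not deviate together (correlations -0.000534, 0.0318, -0.00219 and -0.0134). No pairing by number was thus seen, which does not show that the libraries were unpaired. The depth limits Bbs10, Bbs12, Nphp4 and Mks1 most.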
